A study of Mus musculus with 8 samples.

Results

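The genes that encode the transforming growth factor-beta (TGF-β) ligands, their receptors and the latent TGF-β binding proteins were followed in cultured mouse optic nerves with and without lithium. These were the 3 ligand genes Tgfb1, Tgfb2 and Tgfb3, the 3 receptor genes Tgfbr1, Tgfbr2 and Tgfbr3, and the 4 binding protein genes Ltbp1, Ltbp2, Ltbp3 and Ltbp4. Members were chosen by name, with earlier results of these data known. Every probe set of the array that is annotated to 1 of these symbols alone was used. This gave 24 of the 45037 probe sets tested and 10 of the 18193 genes with a probe set of their own. Where a gene had several probe sets, the one with the highest mean log2 signal over the 8 arrays is called its main probe set.

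Nerves came from C57BL/6 mice aged 35 to 45 days by the labels, whereas the methods name C57/BL10, and neither source describes a transgene in the mice used for the arrays. They were kept in organotypic culture for 3 days with the retina attached, in medium with horse serum, to which saline was added for the 4 control samples and lithium chloride at 20 mM for the 4 lithium samples. The labels give 6 nerves per sample, so that a sample pools several nerves, and nothing says that the samples came from separate cultures or animals. The methods give fewer nerves and mice for the transcriptomic work than 4 such samples a group would need. The p-values therefore reflect the spread among the arrays of a group and nothing more, and that spread may be technical.

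TGF-β ligands are secreted in a latent complex, in which the mature dimer stays bound to its own propeptide. The propeptide is linked to a latent TGF-β binding protein that anchors the complex in the extracellular matrix, and integrins, proteases or thrombospondin release the active ligand. Active ligand is bound by the type II receptor, which phosphorylates the type I receptor and through it Smad2 and Smad3, while the type III receptor, betaglycan, presents ligand and is needed most for TGF-β2. In the central nervous system the pathway is known for its part in the gliotic scar, in the deposition of matrix and in keeping microglia in their resting state.

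Lithium and control arrays differed in opposite directions for a pair of ligands. Tgfb1 fell 3.51-fold in lithium, Tgfb2 was higher on all 4 of its probe sets and rose on 2 of them, and Tgfb3 did not pass the test. Among the receptors Tgfbr3 fell by a small but closely replicated amount. All 4 binding protein genes had lower means in lithium, and the difference of Ltbp2 was 7.28-fold, but none of the 4 passed the test on its main probe set. The call rule was an adjusted p under 0.05 in limma's moderated test, with adjustment by Benjamini-Hochberg over all 45037 probe sets. By this rule 2 of the 10 main probe sets were lower and 0 were higher, and at an unadjusted p under 0.05 the counts were 6 lower and 1 higher. Over all 18193 genes, 2.05% were called lower and 1.18% higher, and at an unadjusted p under 0.05 the shares were 12.6% and 9.38%. The median log2 fold change was -0.48 over the 10 main probe sets and 0 over all genes. Of all 24 probe sets 2 were called lower and 2 higher, against 1.39% and 0.944% of all probe sets. No called probe set of a member also reached a fold change of 2 with a mean signal of 200 in a group, the limits that the study names. Of all genes 0.33% were called and reached both limits. Ltbp2 reached both, with a control mean of 213, but was not called.

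**Figure D1:**
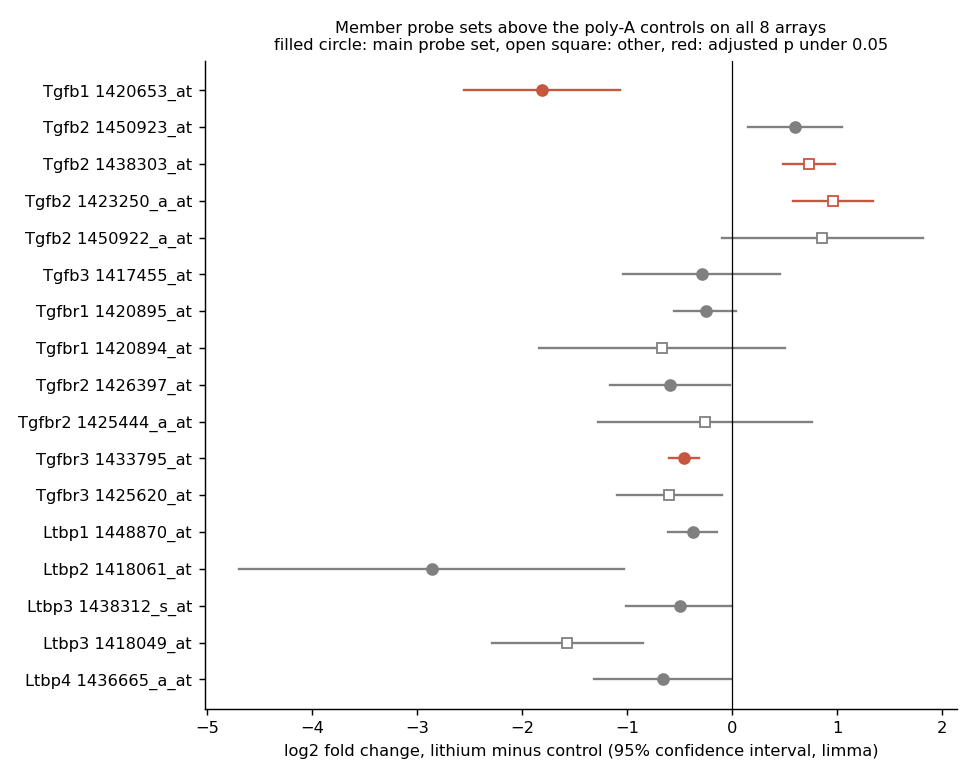
Log2 fold change of lithium minus control with its 95% confidence interval from limma for the 17 member probe sets that lay above the poly-A control probe sets on all 8 arrays, with filled circles for main probe sets, open squares for others and red for adjusted p under 0.05. Tgfb1 (-1.81) and Ltbp2 (-2.86) lie far to the left with wide intervals, Tgfbr3 (-0.46) has a narrow interval, and the 4 probe sets of Tgfb2 lie to the right of 0.

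The stretches of 250 bases before the transcription start are shown for the ligand genes that moved in opposite directions, Tgfb1 and Tgfb2, and for Ltbp2, which had the largest log2 fold change among the members. They are RefSeq sequences of build GRCm38.p6, written 5′ to 3′ on the strand of the gene, at chr7:25686752-25687001 on the plus strand for Tgfb1, chr1:186705990-186706239 on the minus strand for Tgfb2 and chr12:84876492-84876741 on the minus strand for Ltbp2. Of the 10 members 8 had an entry. Capitals mark matches, on either strand, to the GC box (GGGCGG), the Smad box core (CAGAC), the E box (CACGTG) and the TATA box core (TATAAA), and no marked match overlaps another.
Tgfb1: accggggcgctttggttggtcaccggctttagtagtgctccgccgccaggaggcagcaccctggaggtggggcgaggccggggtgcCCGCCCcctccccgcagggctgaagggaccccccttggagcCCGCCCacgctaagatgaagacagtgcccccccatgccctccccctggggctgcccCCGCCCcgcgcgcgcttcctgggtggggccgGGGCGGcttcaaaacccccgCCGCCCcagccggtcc
Tgfb2: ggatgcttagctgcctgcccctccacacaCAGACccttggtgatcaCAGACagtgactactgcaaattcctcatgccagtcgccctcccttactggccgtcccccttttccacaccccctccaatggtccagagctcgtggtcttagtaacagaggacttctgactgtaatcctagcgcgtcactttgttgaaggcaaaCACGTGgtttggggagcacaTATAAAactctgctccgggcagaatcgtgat
Ltbp2: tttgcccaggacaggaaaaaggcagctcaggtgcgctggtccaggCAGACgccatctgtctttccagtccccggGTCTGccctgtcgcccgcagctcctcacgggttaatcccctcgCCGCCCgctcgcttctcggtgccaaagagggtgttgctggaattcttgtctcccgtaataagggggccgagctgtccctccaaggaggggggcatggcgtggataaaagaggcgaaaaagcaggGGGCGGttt
The Tgfb1 stretch is 75.2% G and C and holds 5 GC boxes, with no match to the other letters searched. The Tgfb2 stretch is 53.6% G and C, close to the median of 52.4% over all promoters, and holds a TATA box core that begins 31 bases before the start, an E box at 51 and Smad box cores at 221 and 204, with no GC box. The Ltbp2 stretch is 61.6% G and C and holds 2 GC boxes and 2 Smad box cores. Among 32851 promoters of the same length, 32.7% hold a GC box, 42.2% a Smad box core, 6.02% an E box and 12.4% a TATA box core. The letters of the TCF/LEF core (ATCAAAG), the AP-1 site (TGACTCA) and the cyclic AMP response element (TGACGTCA), which 3.21%, 4.46% and 1.55% of promoters hold, were in none of the 3 stretches. A match describes letters and is not evidence of binding.

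Tgfb1 encodes the ligand that is best known from inflammation and scarring. The values are MAS5 signals, linear intensities that the authors scaled to the same trimmed mean on each array, and they show the relative amount of 1 transcript across arrays, not between genes. Its main probe set 1420653_at read 105, 94.0, 136 and 147 in control and 25.5, 22.3, 49.4 and 46.3 in lithium, here and throughout in the order of arrays 1 to 4. The groups did not overlap, and the lowest control array was above the highest lithium array. The mean fell from 120 ± 25.2 (SD, n = 4) to 35.9 ± 13.9 (SD, n = 4), a log2 fold change of -1.81 (SE 0.31, limma adjusted p = 0.0392). The second probe set, 1445360_at, read 2.80 to 6.69, near the poly-A control probe sets of transcripts that are not of mouse, and was above the highest of them on 2 control and 3 lithium arrays only. The Tgfb1 call was near its threshold. With 1 array left out the log2 fold change ran from -1.99 to -1.61 and the adjusted p from 0.0551 to 0.106, so that the call was lost with each of the 8 arrays left out. With the replicate number as a block, which pairs same-numbered arrays, the adjusted p was 0.054, and averaged with the second probe set the log2 fold change was -0.69 (adjusted p = 0.0573). Of the alternatives, 12 lost the call and 8 kept it. Quantile normalization (limma adjusted p = 0.0259) and median centring (limma adjusted p = 0.0167) were among those that kept it. So was a fit with a term for arrays 1 and 2 against 3 and 4 (limma adjusted p = 0.00516).

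Tgfb2 encodes the isoform that depends most on betaglycan. Its main probe set 1450923_at read 936, 1060, 891 and 851 in control and 2028, 1423, 1236 and 1113 in lithium. Every lithium array was above every control array, and lithium array 1 was far above the others. The log2 fold change was 0.60 (SE 0.19) and did not pass the test (adjusted p = 0.163), and without lithium array 1 it was 0.43 (adjusted p = 0.159). Probe set 1438303_at read 508, 587, 581 and 542 in control and 1069, 959, 812 and 850 in lithium, with no overlap. Its mean rose from 555 ± 36.7 to 922 ± 116 (SD, n = 4 each), a log2 fold change of 0.73 (SE 0.10, limma adjusted p = 0.0263). Probe set 1423250_a_at read 459, 483, 418 and 399 in control and 1161, 825, 764 and 724 in lithium, again with no overlap and with lithium array 1 highest. Its mean rose 1.95-fold, from 440 ± 38.3 to 869 ± 199 (SD, n = 4 each; limma adjusted p = 0.0374). Probe set 1450922_a_at read 387, 397, 231 and 211 in control and 1008, 617, 406 and 321 in lithium, and here the groups overlapped (log2 fold change 0.86, adjusted p = 0.336). The probe sets of Tgfb2 thus shared the direction and differed in their spread.

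Both Tgfb2 calls were lost with most arrays left out. For 1438303_at the adjusted p with 1 array left out ran from 0.0437 to 0.0776 and stayed under 0.05 without lithium array 1, 3 or 4 only. For 1423250_a_at it ran from 0.0364 to 0.1 and stayed under 0.05 without lithium array 1 only. With the replicate number as a block the adjusted p-values were 0.0893 and 0.0717, and with each array centred on its median 0.0853 and 0.0751, at log2 fold changes of 0.82 and 1.05. A term for arrays 1 and 2 against 3 and 4 kept both calls (limma adjusted p = 0.0173 and 0.0147).

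Tgfb3 encodes the third ligand. Its probe set 1417455_at read 135, 140, 199 and 223 in control and 128, 84.9, 162 and 215 in lithium. The groups overlapped widely, and arrays 3 and 4 were higher than arrays 1 and 2 in either group. The log2 fold change was -0.29, with a 95% confidence interval from -1.04 to 0.46 (adjusted p = 0.705), so that a fall of more than 2-fold as well as a small rise lie within the interval.

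**Figure D2:**
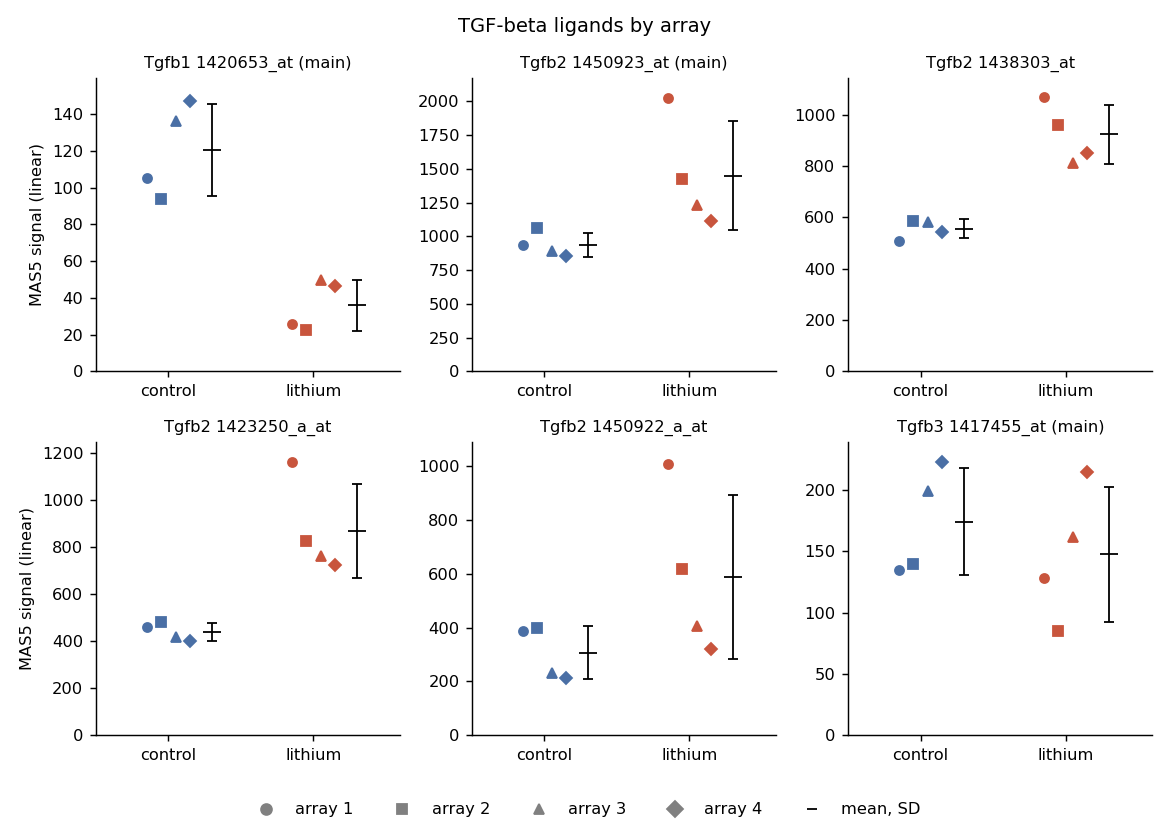
MAS5 signal on a linear scale for the 6 ligand probe sets above the poly-A controls on all 8 arrays, with 1 point per array, its shape the array number, and the mean with its SD beside each group of 4. Tgfb1 separates downwards (94.0 to 147 in control, 22.3 to 49.4 in lithium), Tgfb2 upwards on 3 of its 4 probe sets with 1450922_a_at overlapping, with the highest value on lithium array 1 in each, and Tgfb3 overlaps.

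The difference between the log2 signals of 2 members within each array was compared for all pairs within a role, on main probe sets. The opposite directions of Tgfb1 and Tgfb2 were known, so that their pair is no independent evidence of them, and the main probe set of Tgfb2 was not itself called. Scaling of a whole array cancels in such a difference, and only its change between groups is read here. Tgfb1 minus Tgfb2 ran from -3.49 to -2.53 in control and from -6.31 to -4.59 in lithium. This was a change of -2.41 with no overlap. The exact two-sided permutation test, which takes the arrays as unpaired, gave p = 0.0286, the smallest that 4 against 4 arrays allow, and an adjusted p of 0.0686 over the 12 pairs. With same-numbered arrays exchanged only with each other the exact permutation p was 0.125, the smallest that 4 such pairs allow, so that none of the 12 pairs could pass in that test. Tgfb1 minus Tgfb3 changed by -1.52 (exact permutation p = 0.0286, adjusted p = 0.0686). Tgfb2 minus Tgfb3 changed by 0.89 (exact permutation p = 0.114, adjusted p = 0.196). No pair can pass an adjusted p of 0.05 unless more pairs reach the smallest p than did here.

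Among the receptors, Tgfbr3 encodes betaglycan, the co-receptor that hands ligand to the type II receptor. Its main probe set 1433795_at read 291, 286, 262 and 289 in control and 207, 215, 199 and 200 in lithium. The arrays of a group lay close together and the groups did not overlap. The mean fell from 282 ± 13.4 to 205 ± 7.43 (SD, n = 4 each), which is 1.37-fold and a log2 fold change of -0.46 (SE 0.06, limma adjusted p = 0.0206). The weaker probe set 1425620_at read 14.4, 14.7, 9.77 and 9.49 in control and 8.01, 9.85, 7.70 and 6.10 in lithium, which overlapped (log2 fold change -0.60, adjusted p = 0.2). With 1 array left out the adjusted p of 1433795_at ran from 0.0395 to 0.064 and stayed under 0.05 without control array 3, lithium array 2 or lithium array 4 only. With each array centred on its median the log2 fold change was -0.37 (adjusted p = 0.359), and the block on replicate number gave an adjusted p of 0.0689. A term for arrays 1 and 2 against 3 and 4 kept the call (limma adjusted p = 0.0119).

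Tgfbr1 encodes the type I receptor, the kinase that phosphorylates Smad2 and Smad3. Its main probe set 1420895_at read 377, 425, 369 and 407 in control and 310, 413, 286 and 326 in lithium. Lithium array 2 lay among the control arrays and the other lithium arrays lay under them. The log2 fold change was -0.25 (95% confidence interval -0.55 to 0.04, adjusted p = 0.349). Of its other probe sets, 1420894_at read 3.86 to 17.8 (log2 fold change -0.67, adjusted p = 0.563), and 1420893_a_at was above the poly-A controls on 2 control and 0 lithium arrays.

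Tgfbr2 encodes the type II receptor, which binds the ligand first. Its main probe set 1426397_at read 259, 211, 278 and 369 in control and 127, 178, 206 and 233 in lithium. Each lithium array was below the same-numbered control array, but the groups overlapped. The log2 fold change was -0.59 (95% confidence interval -1.16 to -0.02, adjusted p = 0.26). Probe set 1425444_a_at read 2.97 to 11.3 (log2 fold change -0.26, adjusted p = 0.821), and 1422019_at was not above the poly-A controls on any array. Within arrays, the change of Tgfbr1 minus Tgfbr3 was 0.21 (exact permutation p = 0.0571, adjusted p = 0.114), that of Tgfbr1 minus Tgfbr2 0.34 (exact permutation p = 0.229) and that of Tgfbr2 minus Tgfbr3 -0.13 (exact permutation p = 0.657), so that no receptor was shown to differ from another in its response.

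**Figure D3:**
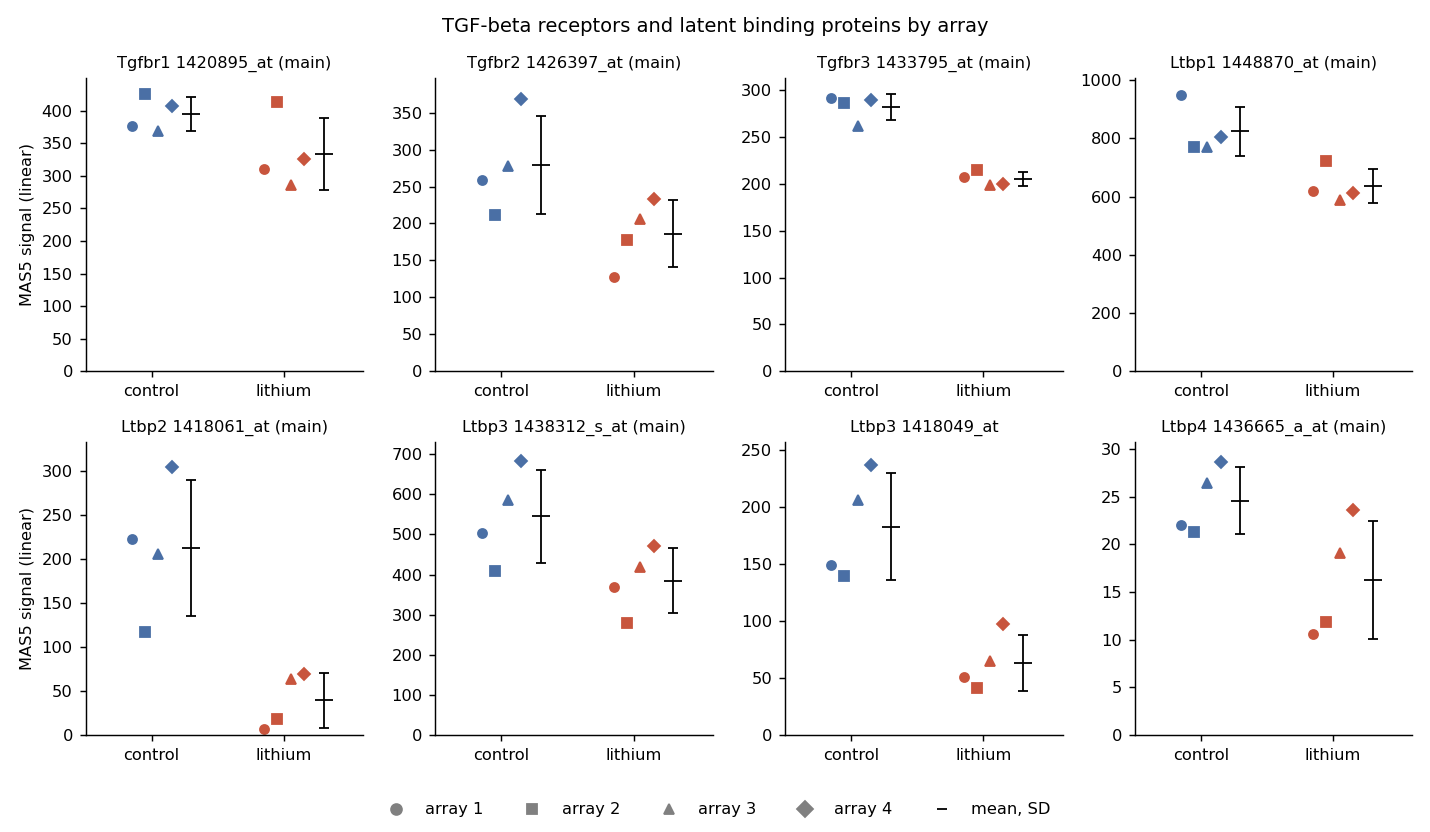
MAS5 signal on a linear scale for the main probe sets of the receptors and binding proteins and a second probe set of Ltbp3, with 1 point per array, its shape the array number, and the mean with its SD beside each group of 4. Tgfbr3, Ltbp1, Ltbp2 and Ltbp3 1418049_at show no overlap between groups, and Ltbp2 spreads from 7.18 to 69.4 in lithium.

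Of the binding proteins, Ltbp1 encodes one that carries latent TGF-β1 into the matrix. Its main probe set 1448870_at read 949, 771, 772 and 804 in control and 619, 722, 590 and 614 in lithium. The groups did not overlap, and lithium array 2 came closest to control. The log2 fold change was -0.37 (SE 0.10, adjusted p = 0.11). The other Ltbp1 probe sets, 1419786_at and 1447547_at, read 2.26 to 7.05, each at or under the poly-A controls on at least 1 array, and averaging all 3 gave 0.09 (adjusted p = 0.785).

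Ltbp2 encodes a binding protein of elastic fibres that, unlike the other members of its family, does not bind latent TGF-β. Its only probe set 1418061_at read 223, 117, 206 and 305 in control and 7.18, 18.5, 63.3 and 69.4 in lithium. The groups did not overlap, and lithium arrays 1 and 2 were well below lithium arrays 3 and 4. The mean was 213 ± 77.1 in control and 39.6 ± 31.3 in lithium (SD, n = 4 each), a log2 fold change of -2.86 (95% confidence interval -4.70 to -1.03) that did not pass the test (adjusted p = 0.114). Within arrays 1 and 2 it was -3.81 and within arrays 3 and 4 -1.92. It passed with 16 added to the signal before the log (-2.18, adjusted p = 0.0496) and with a term for arrays 1 and 2 against 3 and 4 (adjusted p = 0.0371). It also passed with testing limited to probe sets that reach a mean of 200, a level that Ltbp2 reached in control alone. Under 18 of 21 alternatives it did not pass, with adjusted p-values up to 0.239, the replicate block (0.126) and each of the 8 arrays left out among them.

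Ltbp3 encodes a binding protein that is known from bone and tooth development, and its probe sets differed in the size of the change. The main probe set 1438312_s_at read 504, 409, 585 and 682 in control and 370, 280, 418 and 471 in lithium, which overlapped (log2 fold change -0.50, adjusted p = 0.281). Probe set 1418049_at read 149, 139, 206 and 237 in control and 51.0, 41.0, 64.5 and 96.9 in lithium, with no overlap. Its means of 183 ± 46.5 and 63.3 ± 24.3 (SD, n = 4 each) differed 2.97-fold, with an adjusted p of 0.0531. This probe set passed under quantile normalization (adjusted p = 0.0382), with each array centred on its median (adjusted p = 0.0296) and under the block on replicate number (adjusted p = 0.0489). Under 11 of 18 alternatives it did not pass, and with 1 array left out it passed in 1 of 8 fits (adjusted p 0.0438 to 0.128). The suffix of the main probe set says that its probes also match other transcripts. The remaining probe sets, 1437833_at and 1456189_x_at, were at or under the poly-A controls on several arrays.

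Ltbp4 encodes a binding protein of elastic fibres that prefers latent TGF-β1. Its probe set 1436665_a_at read 22.0, 21.3, 26.4 and 28.6 in control and 10.6, 11.8, 19.1 and 23.6 in lithium. Lithium arrays 1, 2 and 3 lay below all control arrays, and lithium array 4 lay among them. The log2 fold change was -0.66 (95% confidence interval -1.32 to -0.01, adjusted p = 0.273). Within arrays, and among the binding proteins, the pairs with Ltbp2 changed most. Ltbp1 minus Ltbp2 changed by 2.49, Ltbp2 minus Ltbp3 by -2.36 and Ltbp2 minus Ltbp4 by -2.20, each with an exact permutation p of 0.0286 and an adjusted p of 0.0686 over the 12 pairs. These pairs share the Ltbp2 probe set, whose large change was known and was not called. They are therefore no independent evidence of it, nor independent of each other. For the 3 pairs without Ltbp2 the changes were 0.13, 0.29 and 0.16, with exact permutation p-values of 0.4 to 0.686.

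Over the main probe sets of the 10 members, groups did not overlap for 4 genes that were lower in lithium (Tgfb1, Tgfbr3, Ltbp1 and Ltbp2) and for 1 that was higher (Tgfb2). Over all genes 8.92% were lower and 6.47% higher without overlap.

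Outside the members, 77 of 82 listed genes of the pathway had a probe set of their own, of which 57 had lower and 20 higher means in lithium. Of all 18193 genes 9150 had lower and 8606 higher means. Of the 77 pathway genes 4 were called lower and 0 higher in limma, against 2.05% and 1.18% of all genes. At an unadjusted p under 0.05 the counts were 32 and 2, against 12.6% and 9.38% of all genes. Their median log2 fold change was -0.40, and 28 were lower and 1 higher without overlap, against 8.92% and 6.47% of all genes. The 4 calls were Itgb1, Itgb3, Col3a1 and Inhbb, and with the replicate block none of them passed. With each of the 8 arrays left out in turn, Itgb3 passed in 4 fits, Col3a1 and Inhbb in 1 each and Itgb1 in 0.

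Among 22 genes of latency and activation 2 fell, both integrin chains, and 0 rose, against 2.05% and 1.18% of all genes. The median log2 fold change of the list was -0.55. Itgb3, a chain of the integrin that binds the propeptide and fibronectin, read 185, 199, 198 and 266 in control and 75.8, 100, 104 and 79.3 in lithium. Each lithium array was below each control array, and the log2 fold change was -1.24 (SE 0.16, limma adjusted p = 0.0201). Itgb1, the chain shared by most matrix integrins, read 300, 265, 310 and 265 in control and 197, 199, 163 and 146 in lithium (log2 fold change -0.70, SE 0.12, limma adjusted p = 0.0413). Itgav, the partner of Itgb3 and Itgb8, did not pass the test (log2 fold change -0.01, adjusted p = 1), nor did Itgb8, which activates TGF-β on astrocytes (-0.37, adjusted p = 0.604), or Thbs1, the gene of the activator thrombospondin 1 (-0.57, adjusted p = 0.234).

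Of the 8 co-receptors and receptor-level inhibitors 0 were called in either direction (median -0.14), with 2 lower and 2 higher at an unadjusted p under 0.05. For this list and the Smads the shares of all genes were 2.05% called lower and 1.18% higher. At the unadjusted p they were 12.6% and 9.38%. Eng, the endothelial co-receptor endoglin, had a mean signal of 92.0 ± 19.1 in control and 52.3 ± 13.8 in lithium (SD over 4 arrays), which gave -0.83 on the log2 scale with an adjusted p of 0.119. Of 16 Smads and their regulators 0 were called (median -0.24), with 5 lower and 0 higher at an unadjusted p under 0.05. Smad3, a signal transducer of the pathway, read 853, 877, 758 and 847 in control and 634, 695, 647 and 743 in lithium, without overlap (log2 fold change -0.29, adjusted p = 0.109). For Smad2, its close relative, the log2 fold change was 0.32 (adjusted p = 0.396), for Smad4, the shared partner, 0.06 (adjusted p = 0.853), and for Skil, a repressor of Smad signalling, -0.15 (adjusted p = 0.508).

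Of 24 genes that TGF-β is known to induce 1 fell and 0 rose (median -0.71), with 13 lower and 0 higher at an unadjusted p under 0.05. The shares of all genes were 2.05% and 1.18% called, and 12.6% and 9.38% at the unadjusted p. The gene that fell was Col3a1, a fibrillar collagen, which read 1093, 742, 1136 and 1299 in control and 110, 158, 293 and 300 in lithium. Its log2 fold change was -2.41 (SE 0.37, limma adjusted p = 0.0321). Tgfbi, a secreted matrix protein named for its induction by TGF-β, read 493 to 812 in control and 304 to 470 in lithium (-0.79, adjusted p = 0.0911), Ccn2, connective tissue growth factor, had -0.40 (adjusted p = 0.358) and Pmepa1, a feedback inhibitor, -0.33 (adjusted p = 0.144). In the activin and nodal branch 1 of 11 genes fell and 0 rose (median -0.49), with 2 lower and 0 higher at an unadjusted p under 0.05. It was Inhbb, the beta B subunit of activins and inhibins, which read 429, 476, 423 and 343 in control and 240, 206, 227 and 153 in lithium (log2 fold change -1.03, limma adjusted p = 0.0365).

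The study places Tgfb1 in a network with Lox, which cross-links elastin and collagen, with the elastin gene Eln and with the gelatinase Mmp9, genes that it chose on these samples. Lox read 405 to 736 in control and 19.5 to 129 in lithium (log2 fold change -3.34, adjusted p = 0.0504). Eln read 37.7 to 79.8 and 8.04 to 22.5 (-1.72, adjusted p = 0.0794), and Mmp9 read 122 to 300 and 10.6 to 110 (-2.52, adjusted p = 0.154). None of the 3 passed the test, and the groups of none overlapped. Of the 13 alternatives other than leaving out an array, Lox passed in 7, Eln in 3 and Mmp9 in 2, and none of the 3 passed with any array left out.

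**Figure D4:**
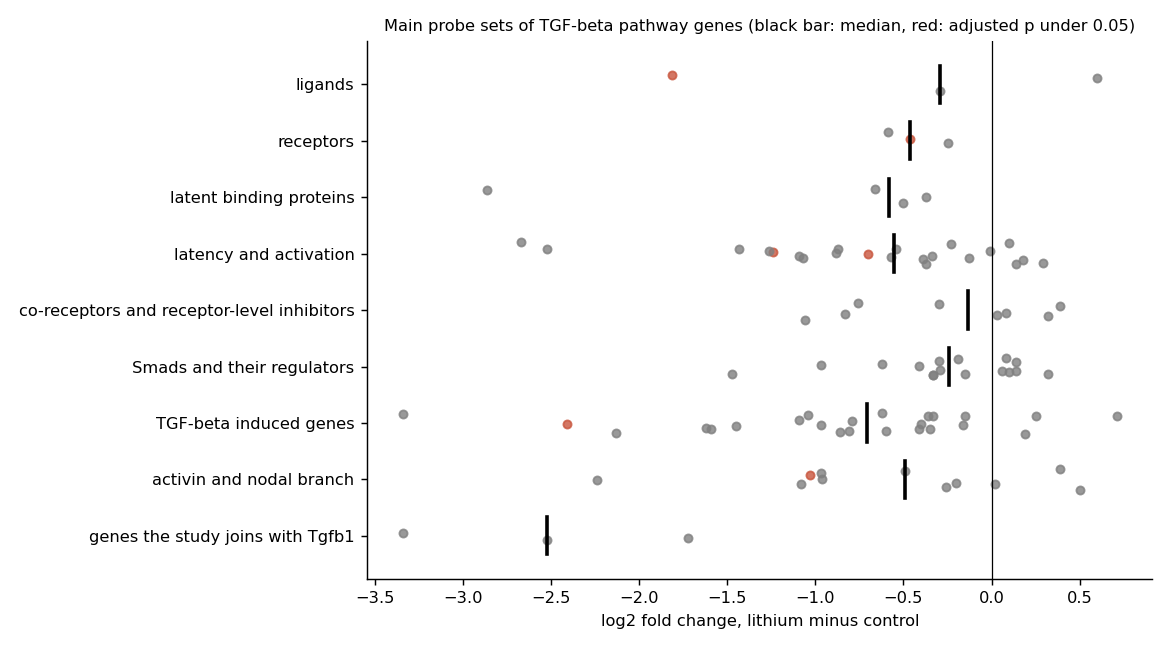
Log2 fold change of lithium minus control for the main probe set of each pathway gene by list, with 1 point per gene, a black bar for the median of the list and red for adjusted p under 0.05. All red points lie to the left of 0, and the medians run from -2.52 for the 3 genes that the study joins with Tgfb1 to -0.14 for the co-receptors, with Tgfb2 (0.60) to the right among the ligands.

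The nerve is a mixture of cells, and in such bulk RNA fewer cells of a type and less RNA per cell cannot be told apart. Summed signals of the 9 microglia and macrophage markers, cells that are a known source of Tgfb1, were 2087 to 2740 in control and 1510 to 2091 in lithium, with 1 of 9 called lower and a median log2 fold change of -0.26. The 12 fibroblast and meninges markers, of a cell type known for Ltbp2 and collagens, summed to 4469 to 6297 in control and 1840 to 3665 in lithium (2 of 12 called lower, median -1.40). Dcn, Col1a1 and Col1a2 of this list, and Acta2 and Tagln of the pericyte list below, are also among the pathway genes counted above. Those counts and these sums therefore share probe sets. The 7 endothelial markers summed to 436 to 709 in control and 172 to 371 in lithium (1 of 7, median -0.66). Much of the endothelial sum was Flt1, at 254 to 368 in control and 37.0 to 145 in lithium, and no sum without it was taken. Taken singly, groups overlapped for Pecam1, Cldn5, Tek and Esam and did not for Flt1, Cdh5 and Kdr. The 9 pericyte and smooth muscle markers summed to 1224 to 1965 in control and 1113 to 2038 in lithium (1 of 9, median -0.82). Much of the pericyte sum was Tagln, a contractile protein gene, at 660 to 1186 in control and 812 to 1834 in lithium. The other 8 markers, summed after the data were seen, gave 342 to 941 and 203 to 301, without overlap, and 8 of the 9 had lower means in lithium. The 8 astrocyte markers overlapped, at 7279 to 7888 in control and 6616 to 7821 in lithium (0 of 8, median -0.02), as did 7 oligodendrocyte markers at 10154 to 10880 and 10139 to 13228 (0 of 7, median 0.03). The summed 7 retinal neuron markers separated, at 253 to 290 in control and 142 to 204 in lithium (0 of 7, median -0.48). Thy1 alone read 66.4 to 171 in control and 43.8 to 50.7 in lithium, and no sum without it was taken. Of the 7, 5 had lower and 2 higher means in lithium, and singly only Thy1 and Elavl4 did not overlap. Slc17a6, Syt1, Pou4f1 and Elavl4 were each at or under the poly-A controls on at least 1 array. The 7 oligodendrocyte precursor markers overlapped, at 1836 to 2215 and 1483 to 1965 (0 of 7, median -0.36). No marker of any of these lists was called higher, and of all genes 2.05% were called lower and 1.18% higher. Whether these shifts had a part in the differences of Tgfb1, Tgfb2, Tgfbr3 or Ltbp2 was not tested. Of the defining markers, Gfap of astrocytes (log2 fold change -0.11, limma adjusted p = 0.668) and Aif1 of microglia (0.18, adjusted p = 0.774) did not pass the test. Nor did Pecam1 of endothelium (0.10, adjusted p = 0.883) or Dcn of fibroblasts (-1.07, adjusted p = 0.194). Pdgfrb of pericytes was called lower (-2.14, adjusted p = 0.0401). All of these were above the poly-A controls on all arrays.

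**Figure D5:**
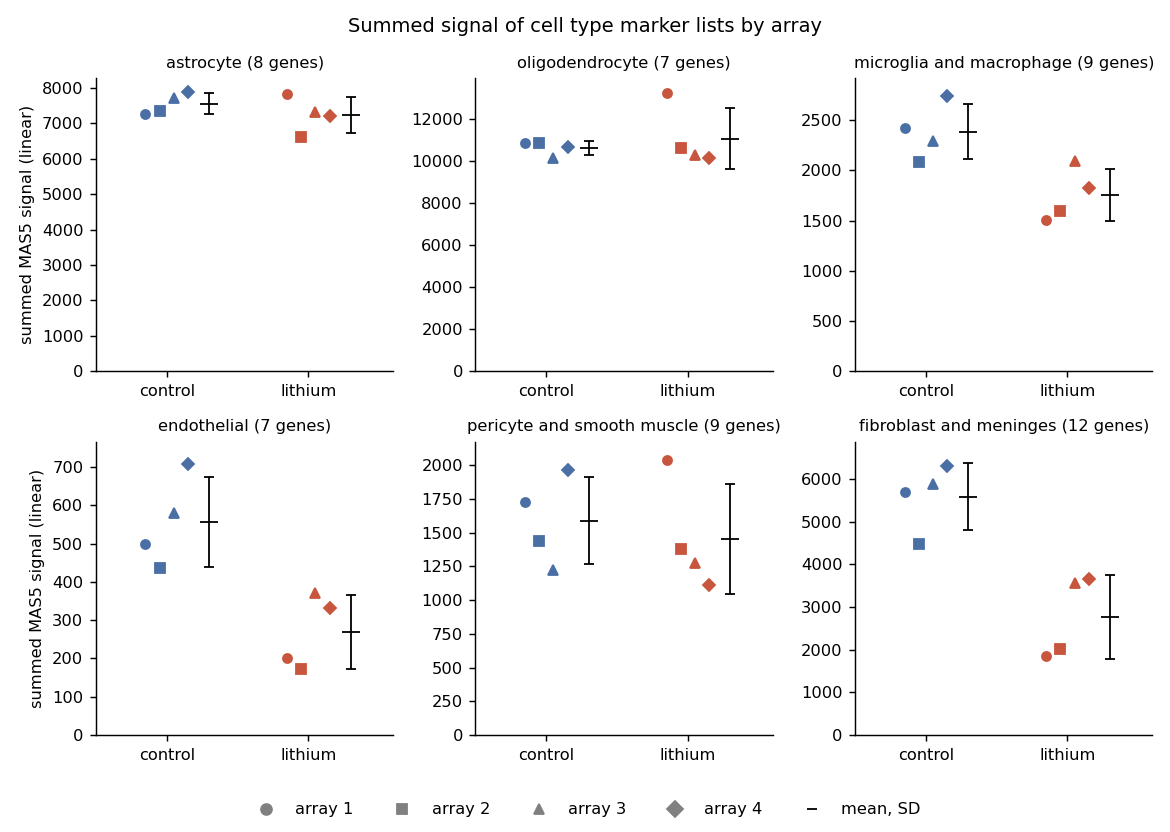
Summed MAS5 signal of 6 cell type marker lists on a linear scale, with 1 point per array, its shape the array number, and the mean with its SD beside each group of 4. The fibroblast list (4469 to 6297 against 1840 to 3665) separates, as does the endothelial list (436 to 709 against 172 to 371), much of whose sum is Flt1. The astrocyte and oligodendrocyte lists overlap, as does the pericyte list, most of whose sum is Tagln.

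The arrays were alike in the correlation of log2 signals within groups, which was 0.968 to 0.983. Lithium array 1 stood apart, with the lowest median signal (12.3, against 14.8 to 17.5 on the others), the highest signal of the cre spike-in control (4068, against 2430 to 3180) and the highest excess of 3′ over 5′ signal for Gapdh, a sign of RNA quality (0.53 on the log2 scale, against 0.34 to 0.43). Without it the log2 fold change was -1.67 for Tgfb1 (adjusted p = 0.0897), -0.46 for Tgfbr3 (adjusted p = 0.0506) and -2.22 for Ltbp2 (adjusted p = 0.141), and both Tgfb2 calls remained.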

How the data were processed

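RNA of 4 control and 4 lithium samples was measured on Affymetrix arrays of the mouse genome. The authors deposited MAS5 intensities on a linear scale, normalised in GeneSpring GX 12, and the deposited values had the same trimmed mean of 100 on each array. Genes came from the platform annotation. Of 45101 probe sets 64 Affymetrix controls were left out, and signals were floored at 1 (14.5% of values) and taken to log2. The contrast of lithium with control was estimated by limma 3.58.1 (lmFit, eBayes) under R 4.3.3, with no block and with Benjamini-Hochberg adjustment. The highest of 27 poly-A control signals on an array served as its background. Precision is limited by the height of a signal above that background and by having 8 arrays. The methods' fold change of 2 and level of 200 was an alternative, read as mean linear signal.

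The labels number the arrays 1 to 4 in each group. After subtraction of group means, arrays that share a number correlated at 0.13 to 0.197 in all 4 pairs. By this check, and by no label, the numbers may pair the samples, so that a fit with the number as a block stands among the alternatives. The main fit and the main permutation tests are unpaired. Arrays of other numbers within 1 and 2 or within 3 and 4 correlated at 0.071 to 0.131. Arrays 1 or 2 of a group correlated with arrays 3 or 4 of the other group at -0.181 to -0.066. The numbers thus also separate arrays 1 and 2 from arrays 3 and 4. Other alternatives were quantile normalization, median centring, 16 added before the log, a level of 200 before testing, a trended robust variance, array weights, a term for arrays 1 and 2 against 3 and 4, fits within these pairs, each array left out, and other choices of probe set. The script was tested on simulated data. Text names all members, up to 5 genes per list and direction past the test, and a set of pathway genes, of which 2 were not analysed here. Members and lists were chosen with earlier results of these data known. Promoters are RefSeq sequences. Figures were drawn with matplotlib 3.10.9.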

Additional observations from a re-analysis of the deposited data

Results flagged for a closer look

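On the main Tgfbr3 probe set 1433795_at, control array 3 lay apart from the other control arrays, at 262 against 286 for the next lowest. This was 1 of 34 groups of 4 arrays examined over 17 probe sets, and chance alone sets a sample apart in about 1 group in 20. Without that array the log2 fold change was -0.49 (limma adjusted p = 0.0485).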

How the results depend on the processing

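The number of members called lower, 2, became 1 with median centring (Tgfb1) and 0 with the replicate block, within arrays 1 and 2, within arrays 3 and 4, with probe sets averaged per gene and with the fold change of 2 and level of 200 also required, and it was 0 to 1 with 1 array left out. It became 3, with Ltbp2 added, with 16 added before the log and with the term for arrays 1 and 2 against 3 and 4. With a level of 200 before testing the 2 called were Tgfbr3 and Ltbp2, as Tgfb1 did not reach the level. Tgfb1 kept its direction but did not pass with the replicate block (-1.81), within arrays 1 and 2 (-2.05), within arrays 3 and 4 (-1.56), with the mean of its probe sets (-0.69) or with 1 array left out (-1.99 to -1.61). The same was true of Tgfbr3 with median centring (-0.37), the replicate block (-0.46), within arrays 1 and 2 (-0.45) and 3 and 4 (-0.46) and with the mean of its probe sets (-0.53). With 1 array left out it ran from -0.49 to -0.44. The cause was not tested. The fits within 2 arrays a group called 0 of 45037 probe sets, and those with 1 array left out called 169 to 617 against 1050 with all arrays and 124 with the replicate block, which had 9597 probe sets at an unadjusted p under 0.05. The term for arrays 1 and 2 against 3 and 4 called 2834 probe sets. Median centring moved the median of all probe sets to 0.09.

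Pathway genes outside the members called lower, 4, became 8 with median centring, 11 with 16 added, 12 with a level of 200 before testing (6 of them reach it in control alone), 9 with the trended robust variance, 18 with the term for arrays 1 and 2 against 3 and 4, 8 with probe sets averaged per gene, and 0 with the replicate block and within either pair of arrays. With 1 array left out the number was 0 to 3. Directions turned for Ltbp1 with the mean of its probe sets (0.09), for Tgfbr2 1425444_a_at within arrays 3 and 4 (0.38), for Ltbp1 minus Ltbp4 with 16 added and within arrays 3 and 4 (both -0.02) and for Ltbp3 minus Ltbp4 in the same fits (both -0.14). With 1 array left out they turned for Tgfbr2 minus Tgfbr3 (-0.27 to 0.04), Ltbp1 minus Ltbp3 (-0.08 to 0.25) and Ltbp3 minus Ltbp4 (-0.01 to 0.26). Tgfb1 minus Tgfb2 kept its direction with each array left out (-2.68 to -2.10), within arrays 1 and 2 (-2.83) and within arrays 3 and 4 (-1.99). The tests within 2 arrays a group cannot pass. With signs flipped within same-numbered arrays (a replicate block), which was added after the data were seen, the change was -2.41 with an exact permutation p of 0.125. The main probe set of Tgfb2 was higher in lithium under each alternative and passed in none.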

Other observations

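Smad7, the inhibitory Smad that TGF-β induces, has a main probe set (1443771_x_at) that read 840, 821, 768 and 848 in control and 64.9, 696, 699 and 972 in lithium. Lithium array 1 alone was low, and the log2 fold change of -0.97 did not pass the test (limma adjusted p = 0.642). The other Smad7 probe set, 1423389_at, read 462 on that array, within the 288 to 544 of the other 7 arrays. Its log2 fold change was -0.27 (limma adjusted p = 0.576). The 6 markers of dividing cells summed to 616 to 1731 in control and 40 to 198 in lithium. Of the 6, 3 were called lower (median log2 fold change -3.50), against 2.05% of all genes.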
